A study of Mus musculus with 8 samples.

Results

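The genes described here encode fibroblast growth factors (FGFs) and their receptors in the mouse lung. They are 10 genes of the 22244 in the deposited table, chosen by symbol: the ligands Fgf1, Fgf2, Fgf7, Fgf10, Fgf18 and Fgf23 and the receptors Fgfr1, Fgfr2, Fgfr3 and Fgfr4. The study sequenced total RNA from the right cranial lobe of C57BL/6J mice, described as wildtype and male, and compared 4 control libraries with 4 libraries from mice injected with naphthalene. In mice, naphthalene is used to injure the airway lining, because the enzyme Cyp2f2 of club cells turns it into toxic products. The controls are labelled as having had no treatment, so the injection and its vehicle cannot be told apart from naphthalene. No dose, vehicle, age or time from injection to collection is given in the sources used here. Each library is taken as 1 mouse because the extraction protocol names 4 animals per group.

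FGFs are secreted or released proteins that bind FGF receptors on neighbouring cells together with heparan sulphate chains on the cell surface or in the matrix. A bound receptor, a tyrosine kinase, passes the signal through adaptor proteins to the RAS and ERK cascade, and ERK activity induces transcription factors of the ETV family and inhibitors that feed back on the pathway. In the lung, Fgf7 and Fgf10 are made by mesenchymal cells and act on the epithelial form of Fgfr2, which is needed for airway and alveolar epithelium to form and to recover from injury.

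Libraries held between 10743842 and 16792306 counts assigned to genes, and levels are given as CPM (counts scaled to library size) scaled by the trimmed mean of M values (TMM). Of 14192 genes with enough counts to test, 2005 (14.1%) were higher and 2070 (14.6%) lower after naphthalene at an adjusted p under 0.05 (edgeR's quasi-likelihood test, Benjamini-Hochberg adjustment). The lobes held club and ciliated cell transcripts in both groups, at lower levels after naphthalene. The summed level of 5 club cell markers was 4726 to 9683 CPM in controls and 990.0 to 2704 CPM after naphthalene, and all 5 fell. For Cyp2f2 itself, the level was 1274 ± 394 CPM (SD, n = 4) in controls and 207 ± 71.1 CPM after naphthalene. The summed level of the ciliated cell markers was 626 to 904 CPM against 107 to 229 CPM, and 5 of the 6 tested fell. In bulk tissue, fewer cells of a type and less RNA per cell cannot be told apart. A total of 3152 genes were listed at 0 in all 8 libraries, among them Ptprc, a gene every leukocyte expresses, so a gene listed at 0 everywhere is not read here as absent.

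All 10 FGF genes had enough counts to test. Fgf23, Fgf2 and Fgf7 rose after naphthalene, Fgfr4 fell, and the other 6 did not pass the test. The share higher among these genes, 3 of 10, stands beside 14.1% of all genes tested. These 3 include Fgf23, which reached the filter on low counts in 0 controls and 4 naphthalene libraries. A higher level of Fgf23 without overlap was thus built into its being tested. The share lower, 1 of 10, stands beside 14.6%. The 4 control and 4 naphthalene libraries did not overlap for Fgf23 and Fgf2, which were higher (13.9% of all genes tested), and for Fgfr4, which was lower (14.7%). For the other 7 genes the groups overlapped. The median log2 fold change of the 10 genes was -0.02 and that of all genes tested was 0.01. Fgf23, Fgf2 and Fgfr4 were called under all 16 alternatives computed, and Fgf7 under 8 of them.

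**Figure D1:**
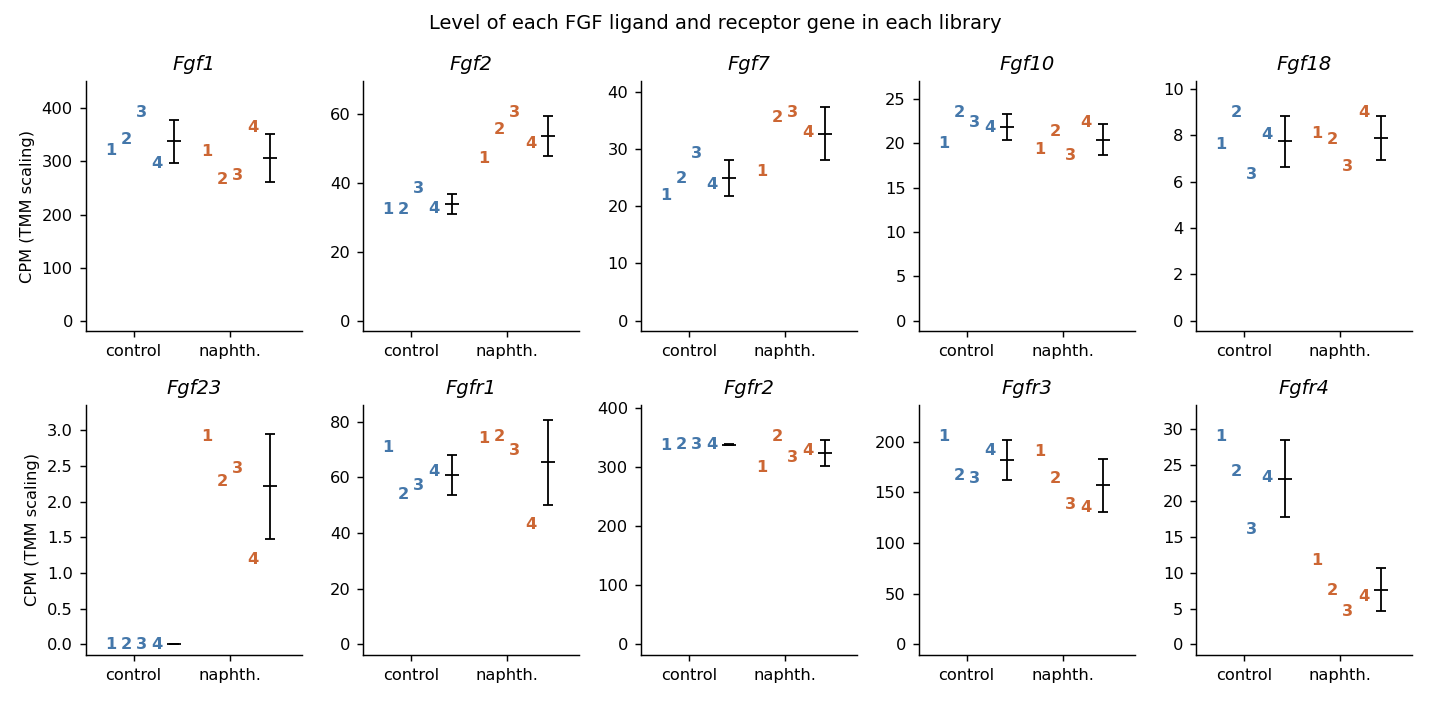
Level of each FGF ligand and receptor gene (TMM-scaled CPM, vertical axis from 0, 1 panel per gene) in the control libraries (blue) and naphthalene libraries (orange), with digits giving the library number and black bars the mean and SD of each group of 4. The naphthalene libraries lie above all controls for Fgf2 and Fgf23 and below all controls for Fgfr4, and the groups overlap in the other 7 panels.

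The sequences just upstream of the starts of the 3 genes whose groups did not overlap show where these genes begin and which short motifs lie there. Each is the 250 bases before the RefSeq gene start, written 5′ to 3′ on the gene's strand, with a matched motif in capitals. All 3 genes lie on the forward strand of GRCm38.p6, at chr6:127072652-127072901 for Fgf23, chr3:37348403-37348652 for Fgf2 and chr13:55152568-55152817 for Fgfr4.
Fgf23: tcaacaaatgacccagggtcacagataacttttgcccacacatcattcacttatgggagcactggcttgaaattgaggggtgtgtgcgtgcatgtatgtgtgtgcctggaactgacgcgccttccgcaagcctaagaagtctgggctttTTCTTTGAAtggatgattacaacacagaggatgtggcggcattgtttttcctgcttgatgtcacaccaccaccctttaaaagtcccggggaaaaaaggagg
Fgf2: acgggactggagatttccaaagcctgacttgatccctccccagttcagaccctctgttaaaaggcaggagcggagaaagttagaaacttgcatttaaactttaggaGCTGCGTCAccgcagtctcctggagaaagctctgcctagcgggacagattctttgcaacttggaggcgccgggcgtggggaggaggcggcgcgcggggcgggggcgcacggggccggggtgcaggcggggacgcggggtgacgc
Fgfr4: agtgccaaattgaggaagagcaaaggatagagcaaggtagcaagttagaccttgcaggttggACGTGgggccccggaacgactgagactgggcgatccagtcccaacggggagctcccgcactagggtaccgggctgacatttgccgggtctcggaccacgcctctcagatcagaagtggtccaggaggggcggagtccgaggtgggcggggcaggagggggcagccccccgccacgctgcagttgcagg

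In these windows both strands were searched for 5 motifs. The capitals in Fgf23 mark the STAT motif TTCNNNGAA, which 7.02% of 32851 mouse promoter windows of this length hold. The capitals in Fgf2 mark the antioxidant response element TGACNNNGC, read on the reverse strand and present in 10.2% of the windows. The capitals in Fgfr4 mark the hypoxia response element ACGTG, present in 16.6% of the windows. The AP-1 motif TGANTCA (6.75% of the windows) and the TATA box TATAAA (12.4%) had no match in these 3 windows. Windows were found for 8 of the 10 genes, and Fgf1 and Fgfr1 had none in the table used. Among the others, 1 of the windows of Fgfr3 held TGACNNNGC, and those of Fgf7, Fgf10, Fgf18 and Fgfr2 held none of the 5 motifs. A match describes letters in a window and is not a measured binding site.

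Fgf23 encodes a hormone made mainly by bone cells, which acts on the kidney with the co-receptor Klotho to lower phosphate in the blood. It had 0 counts in all 4 control libraries. After naphthalene it had 49, 35, 28 and 13 counts, or 2.92, 2.28, 2.46 and 1.19 CPM. Every naphthalene library therefore held Fgf23 reads and no control library did, with the fewest in library 4. Over the group, the naphthalene libraries held 125 counts, a pooled level of 2.30 CPM, and a control group at the floor of 3 counts would have 0.0597 CPM. Fgf23 was thus at least 38.5-fold higher, at least 5.27 on the log2 scale (adjusted p = 0.000308, edgeR). It passed the filter on low counts through the naphthalene group alone, so a difference was built into its being tested. Of the genes tested, 5 had no counts in any control, and Fgf23 had the most naphthalene counts after Mroh4, with 157. The bone markers Bglap, Dmp1 and Sost, a check for bone in the sample, had a summed level of 0.176 to 0.788 CPM in controls and 0.275 to 0.717 CPM after naphthalene. Sost, most of that sum, averaged 0.413 CPM in controls and 0.299 CPM after naphthalene. Bglap (0.0363 and 0.0987 CPM) and Dmp1 (0.0181 and 0.139 CPM) went the other way. All had too few counts to test (0 to 11 per library), so the check is weak.

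Fgf2, a ligand that leaves cells without a secretion signal and is stored on heparan sulphate, had 32.3, 32.4, 38.4 and 32.7 CPM in controls 1 to 4. After naphthalene it had 47.2, 55.4, 60.5 and 51.4 CPM. The lowest naphthalene library was above the highest control, control 3. The mean was 33.9 ± 2.98 CPM in controls and 53.6 ± 5.70 CPM after naphthalene, and Fgf2 rose by 0.66 on the log2 scale (SE 0.10, adjusted p = 0.00116, edgeR). Across the 16 alternatives its log2 fold change stayed between 0.60 and 0.78. In the GENCODE annotation, 640 exonic bases of Fgf2 overlap Nudt6 on the opposite strand. Whether reads were counted by strand is not stated, so reads from that stretch are uncertain. The level of Nudt6 was 4.50 CPM in controls and 4.77 CPM after naphthalene, with a log2 fold change of 0.08 (adjusted p = 0.770, edgeR).

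Fgf7, also called keratinocyte growth factor, is a mesenchymal ligand for the epithelial form of Fgfr2. It had 21.9, 24.7, 29.3 and 23.7 CPM in controls and 26.0, 35.4, 36.4 and 32.9 CPM after naphthalene. Naphthalene 1 lay below control 3, and the other 3 naphthalene libraries lay above all controls. Fgf7 rose by 0.39 on the log2 scale (SE 0.14, adjusted p = 0.0481, edgeR), just inside the threshold of 0.05. The call was lost without control 1, 2 or 4 (adjusted p = 0.133, 0.106 and 0.119, edgeR) and without naphthalene 2, 3 or 4 (0.127, 0.126 and 0.0671). It was also lost with upper quartile scaling (adjusted p = 0.0621) and with no filter on low counts (adjusted p = 0.0584).

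Fgf10, the other ligand of the epithelial form of Fgfr2 and the one that directs lung branching in the embryo, did not pass the test. Its level was 19.99 to 23.5 CPM in controls and 18.6 to 22.3 CPM after naphthalene, with a log2 fold change of -0.10 (SE 0.08, adjusted p = 0.502, edgeR). The spread within each group was narrow, with the highest library 1.18 times the lowest in controls and 1.20 times after naphthalene. The 2 ligands of that receptor form thus gave different calls, but the difference between their fold changes was not tested.

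Fgf1, which can bind every FGF receptor, had 321, 342, 393 and 295 CPM in controls. After naphthalene it had 319, 266, 274 and 364 CPM. The groups overlapped, with control 3 highest and naphthalene 2 lowest, and the log2 fold change was -0.14 (SE 0.14, adjusted p = 0.423, edgeR). Fgf18, a ligand made by lung mesenchyme as alveoli form, lay between 6.33 and 8.998 CPM in controls and between 6.68 and 8.97 CPM after naphthalene. Its log2 fold change was 0.02 (SE 0.14, adjusted p = 0.925, edgeR).

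Fgfr4 was the 1 receptor gene that passed the test with all libraries. In the liver this receptor is known for relaying a gut signal that limits bile acid synthesis. In the lung it is known for its part, with Fgfr3, in forming alveoli. Its level was 29.0, 24.2, 16.1 and 23.2 CPM in controls and 11.7, 7.57, 4.66 and 6.68 CPM after naphthalene. The highest naphthalene library, naphthalene 1, lay below the lowest control, control 3. The mean was 23.1 ± 5.35 CPM in controls and 7.66 ± 2.97 CPM after naphthalene, 0.331 times the control mean. Fgfr4 fell by 1.57 on the log2 scale (SE 0.32, adjusted p = 0.00116, edgeR). Across the 16 alternatives the log2 fold change was -1.40 or lower, and without naphthalene 1 it was -1.86 (adjusted p = 0.000138, edgeR).

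Fgfr4 fell, as did the club and ciliated cell markers. With 2 groups, any 2 genes that fell did so in the same libraries, so this does not place Fgfr4 in those cells. Other lists held falls too. Of 6 tested immune markers 4 were lower and 1 higher, and of 7 alveolar fibroblast markers 2 were lower and 1 higher. Of 5 tested adventitial fibroblast markers 2 were lower. For alveolar cells, the summed level of 6 alveolar type 2 cell markers was 14156 to 17111 CPM in controls and 15949 to 19675 CPM after naphthalene, and 2 of them rose. Of 6 alveolar type 1 cell markers, 3 rose, and their summed level was 3939 to 5215 CPM against 5074 to 6185 CPM. The part of the airway cell markers in the fall of Fgfr4 was not tested. Naphthalene 1, which had the highest Fgfr4 and Fgfr3 levels of its group, also had the highest summed level of the ciliated cell markers in that group (229 CPM) and the lowest of the club cell markers (990.0 CPM). It also held 995 counts of the muscle gene Acta1, singled out after its values were seen, against 27, 6 and 5 in the other naphthalene libraries and 0 to 4 in controls.

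Fgfr3, a receptor of the alveolar epithelium and mesenchyme, had 206, 167, 164 and 191 CPM in controls and 191, 164, 138 and 135 CPM after naphthalene. Naphthalene 3 and 4 lay below all controls, naphthalene 2 lay just below the lowest control (163.8 against 163.9 CPM), and naphthalene 1 matched control 4 to 3 digits. The log2 fold change was -0.21 (SE 0.14, adjusted p = 0.231, edgeR), which did not pass the test. Without naphthalene 1 it was -0.32 and passed (adjusted p = 0.0431, edgeR), and without control 3 and naphthalene 1 together it was -0.37 (adjusted p = 0.0249, edgeR).

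Fgfr1, a receptor found mainly on mesenchymal cells, had 70.6, 53.8, 57.1 and 62.0 CPM in controls. After naphthalene it had 74.1, 74.9, 69.8 and 42.9 CPM. Naphthalene 4 was the lowest of all 8 libraries, while naphthalene 1 and 2 lay above all controls. The log2 fold change was 0.11 (SE 0.21, adjusted p = 0.665, edgeR) with all libraries and 0.26 (adjusted p = 0.0831, edgeR) without naphthalene 4. The summed level of 8 endothelial markers was also lowest in naphthalene 4, at 1508 CPM against 1810 to 3165 CPM in the other naphthalene libraries and 2618 to 3030 CPM in controls. That of 5 pericyte markers was 173 CPM there, against 218 to 450 CPM in the other naphthalene libraries and 279 to 377 CPM in controls. In naphthalene 4 the alveolar fibroblast (4229 CPM), adventitial fibroblast (445 CPM) and myofibroblast and peribronchial markers (241 CPM) were instead the highest of the group. In the other naphthalene libraries these sums were 3541 to 3972, 314 to 389 and 176 to 196 CPM. Smooth muscle markers, at 181 CPM there, lay within the range of the other naphthalene libraries (164 to 348 CPM). The part of any of these cell types in the level of Fgfr1 was not tested.

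Fgfr2, which in its epithelial form receives Fgf7 and Fgf10, was the steadiest of the 10 genes in controls, at 336, 337, 338 and 337 CPM. After naphthalene it had 299, 352, 316 and 327 CPM, on both sides of the controls. Its log2 fold change was -0.06 (SE 0.05, adjusted p = 0.629, edgeR). Gene-level counts do not separate the epithelial and mesenchymal forms of Fgfr2, which differ by 1 exon. The annotation also gives 314 exonic bases that Fgfr2 shares with Ctbp2 on the same strand, and Ctbp2 had a log2 fold change of -0.09 (adjusted p = 0.515, edgeR).

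**Figure D2:**
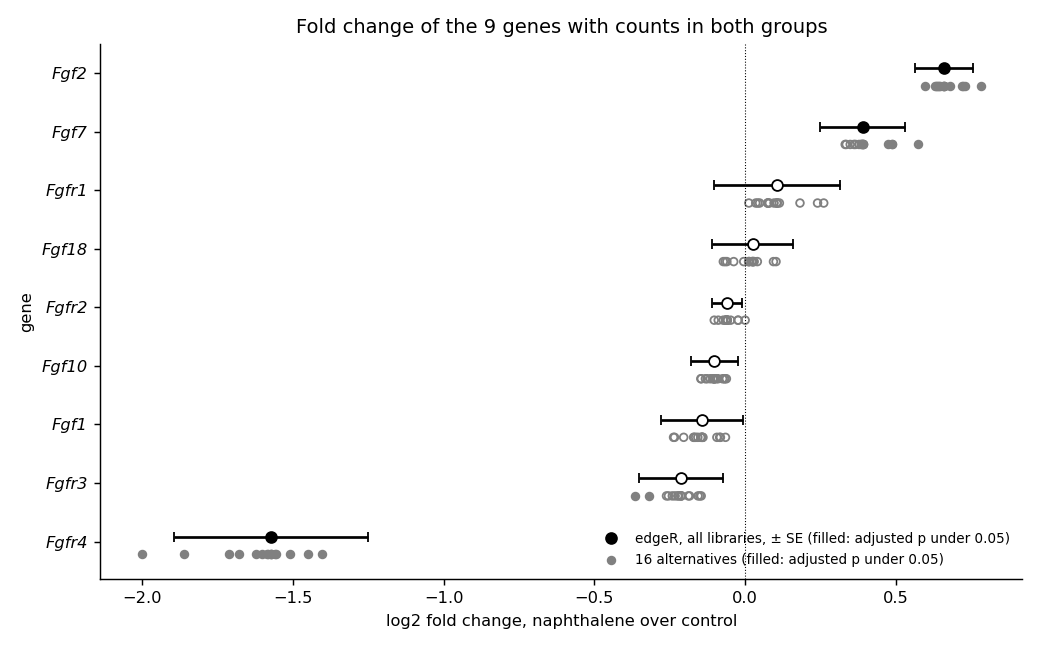
Log2 fold change, naphthalene over control, of the 9 FGF genes with counts in both groups (horizontal axis), with black points and bars for the edgeR estimate and its SE over all 8 libraries and grey points for the 16 alternatives; filled points passed an adjusted p of 0.05. Fgf2 and Fgfr4 are filled throughout, Fgf7 is filled in 8 of its alternatives, and Fgfr3 in 2.

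Levels of different genes were compared per kilobase of exon (CPM per kb). Among the ligands, Fgf1 had the most transcript per length in every library, at 57.0 to 75.7 CPM per kb in controls. In controls Fgf7 (6.96 to 9.31), Fgf18 (5.33 to 7.58), Fgf10 (4.86 to 5.71) and Fgf2 (4.95 to 5.88) followed, and neighbours in that order overlapped in range. After naphthalene Fgf7 (8.27 to 11.6) and Fgf2 (7.23 to 9.28) came after Fgf1, and the ranges of Fgf2 and Fgf10 (4.53 to 5.43) no longer overlapped. Fgf23 was the lowest, at 0.656 to 1.61 CPM per kb. The 6 ligands summed to 81.6 to 102 CPM per kb in controls and 84.2 to 102 CPM per kb after naphthalene, so the sum covered about the same range while its parts differed.

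As a share of the ligand sum, Fgf1 made up 69.8 to 74.5% in controls and 61.0 to 68.7% after naphthalene. The share of Fgf2 was 5.39 to 6.15% and then 7.70 to 10.9%, and that of Fgf7 was 8.17 to 9.24% and then 9.18 to 13.6%. The Fgf1 and Fgf2 shares did not overlap between groups. A share also moves when the other ligands move, and the level of Fgf1 itself did overlap. That level was 57.0 to 75.7 CPM per kb in controls and 51.4 to 70.2 CPM per kb after naphthalene. Among the receptors, Fgfr2 had the most transcript per length, with 48.7 to 55.5% of the receptor sum in controls, and Fgfr3 came next with 31.3 to 34.7%. Fgfr1 held 8.50 to 10.1% and Fgfr4 4.06 to 6.49%. After naphthalene the share of Fgfr4 was 1.30 to 2.95%, below all controls, and the shares of the other 3 receptors overlapped between groups. The receptor sum was 119 to 135 CPM per kb in controls and 105 to 123 CPM per kb after naphthalene. These shares depend on the exon length used. With exons of all annotated transcripts the share of Fgfr4 was 6.88 to 10.7% in controls and 2.26 to 4.98% after naphthalene, still without overlap, and the order of Fgfr1 and Fgfr4 in controls turned.

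**Figure D3:**
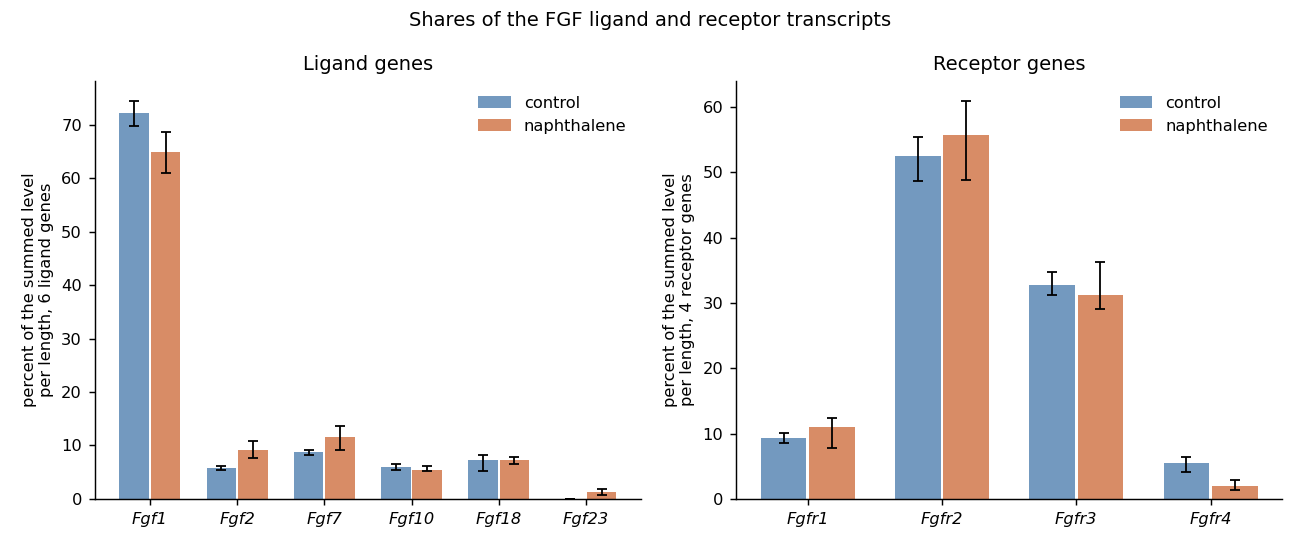
Mean share of the summed level per length (percent, vertical axes from 0) held by each of the 6 ligand genes (left) and 4 receptor genes (right) in control (blue) and naphthalene (orange) libraries; error bars run from the lowest to the highest of 4 libraries. Fgf1 and Fgfr2 hold the largest shares in both groups, and the ranges of Fgf1, Fgf2, Fgf23 and Fgfr4 do not overlap between groups.

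Beyond these genes, 9 lists of other genes of the pathway held 137 genes, of which 115 were tested and 38 (33.0%) passed the test, beside 28.7% of all genes tested. The edgeR counts of each list below, with all 8 libraries, are read against the 14.1% higher and 14.6% lower over all genes. Counts under an alternative are read against its own totals, which differed from the 2005 higher and 2070 lower here. Over all genes, voom with quality weights called 3186 higher and 3317 lower, and DESeq2 2235 and 2314. With 1 library left out, the totals ran from 1397 to 2465 higher and 1513 to 2593 lower, highest without naphthalene 1. Within each list the genes with the smallest p are named with values, and other called genes that are named were chosen after their values were seen. Of 16 other FGF ligands, 5 were tested and none passed with edgeR, while 1 higher and 1 lower had an unadjusted p under 0.05. DESeq2 also called none, and voom with quality weights called 1 higher and 2 lower. Fgf9, a ligand of the mesothelium and epithelium in the embryonic lung, was 0.749 ± 0.303 CPM in controls and 1.39 ± 0.205 CPM after naphthalene. Its groups did not overlap, it passed the filter on low counts in all 4 naphthalene libraries and 2 controls, and its log2 fold change of 0.84 missed the threshold (adjusted p = 0.0749, edgeR). Fgf11, an intracellular relative of the secreted FGFs, was 8.54 CPM in controls and 6.02 CPM after naphthalene (log2 fold change -0.49, adjusted p = 0.105, edgeR), and passed without naphthalene 1 (-0.69, adjusted p = 0.0204, edgeR).

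Of 18 tested co-receptors and FGF-binding proteins, 2 rose and 4 fell (median log2 fold change -0.19). Fgfbp1, a carrier that releases FGFs such as Fgf1 and Fgf2 from the matrix, had 12.2, 12.2, 20.6 and 14.3 CPM in controls and 30.1, 33.6, 43.4 and 48.2 CPM after naphthalene. All 4 naphthalene libraries were above all controls, and Fgfbp1 rose by 1.39 on the log2 scale (SE 0.24, adjusted p = 0.000568, edgeR). The syndecan Sdc1 also rose. The heparan sulphate proteoglycans Sdc2 (log2 fold change -0.55) and Gpc6 (-0.70) fell, as did the adhesion molecule L1cam (-0.77) and the receptor-binding membrane protein Flrt1. Klb, the co-receptor used by Fgfr4, did not pass the test (4.60 and 4.13 CPM, adjusted p = 0.621, edgeR).

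The list of genes that build, edit or carry heparan sulphate, on which FGFs bind their receptors, gave 4 falls and 1 rise among 12 tested (median log2 fold change -0.19). Ndst1, which adds sulphate to the growing chain, had 893, 855, 853 and 833 CPM in controls and 668, 522, 425 and 449 CPM after naphthalene, a log2 fold change of -0.73 (adjusted p = 0.00265, edgeR). The sulfotransferases Hs2st1 (-0.54) and Hs6st2 (-1.23) fell too, and so did Hpse (-0.64), the enzyme that cuts the chains. These 4 were called in every alternative. The rise of the epimerase Glce was lost in 8 of the 16, and in those 8 no gene of the list was called higher.

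Of 23 adaptor and ERK cascade genes, 5 rose and 1 fell (median log2 fold change -0.03). The adaptor Shc1 had a mean of 86.4 ± 1.24 CPM in controls and 149 ± 32.2 CPM after naphthalene, a log2 fold change of 0.79 (adjusted p = 0.00163, edgeR). The phosphatase Ptpn11, which carries the receptor signal to RAS, rose by 0.57, Hras by 0.65 and the ERK kinase Map2k1 by 0.34. Mapk3, which encodes an ERK, fell, but that call was lost without control 1, 2 or 4 and without naphthalene 2, 3 or 4. Without control 3 the count of falls was 2, and without naphthalene 1 it was 3. It was also 2 with RLE or upper quartile scaling, with a replicate block and with DESeq2. Voom with quality weights called 8 higher and 4 lower.

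Of 17 tested transcription factors and feedback inhibitors that FGF signalling induces, 6 rose and 2 fell (median log2 fold change 0.36). Myc had 4.30 ± 1.03 CPM in controls and 16.2 ± 1.93 CPM after naphthalene, a log2 fold change of 1.91 (adjusted p = 4.94e-05, edgeR). Fosl1, a partner in the AP-1 factor, had 4 counts over the 4 controls and 79 after naphthalene (adjusted p = 0.000952, edgeR). Fosl1 and Etv4, both among the 6, passed the filter on low counts through the naphthalene group (0 and 1 of 4 controls reached it), so a difference was built into their being tested. Fosl1 was not tested in 3 of the 16 alternatives. The ETV factors, which are close readouts of FGF signalling in lung epithelium, differed among themselves. Etv4 was 0.665 CPM in controls and 1.60 CPM after naphthalene and rose by 1.30. Etv1 was 29.4 CPM and then 17.6 CPM, a log2 fold change of -0.74. Etv5, the most abundant in CPM, was 228 CPM and then 230 CPM and did not pass the test.

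The feedback phosphatases Dusp4, Dusp5 and Dusp6 rose (adjusted p = 0.0274, 0.0309 and 0.0273, edgeR), and the groups overlapped for Dusp4 and Dusp5. The inhibitor Spred2 fell (adjusted p = 0.0246, edgeR). The Sprouty genes Spry1, Spry2 and Spry4 did not pass the test, and Spry4, the nearest, had a log2 fold change of 0.44 (adjusted p = 0.0574, edgeR). The count of 6 rising genes was 3 without control 1, control 4 or naphthalene 3 and 2 without control 2 or naphthalene 2. The count of 2 falling genes was 1 without control 1, 2 or 4 or naphthalene 2. Calls over all genes also dropped in these settings, from 2005 to between 1397 and 1459 higher and from 2070 to between 1513 and 1612 lower. The call of Etv4 was lost without control 2, control 4 or naphthalene 3, while Myc kept its call in all 16 alternatives. Without naphthalene 2 the 2 genes left were Myc and Etv4, so no Dusp gene was called. Many of these genes also answer to other growth factors and stress signals, and the part of FGF signalling in their levels was not tested.

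The list of genes that control Fgf10 in the developing lung had 1 riser and 5 fallers among 17 tested (median log2 fold change -0.13), while Fgf10 itself did not pass the test. Shh, an epithelial signal that restricts Fgf10 in the embryo, had 13.5, 11.03, 13.0 and 13.5 CPM in controls and 5.59, 7.83, 6.77 and 7.14 CPM after naphthalene. It fell by 0.90 on the log2 scale (SE 0.12, adjusted p = 0.00115, edgeR). Its receptor Ptch1 (-0.52) fell, as did the hedgehog-binding protein Hhip and the signal Bmp4. Wnt2, a mesenchymal Wnt, fell by 1.01, and the epithelial Wnt7b rose by 1.08 (adjusted p = 0.0122, edgeR). The 5 falls became 3 without control 2 or naphthalene 3, and the 1 rise became 2 without naphthalene 4. With no filter on low counts 2 were called higher, and voom with quality weights called 5 higher.

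Among 10 tested genes of the Fgf23 and phosphate axis, 3 rose and none fell with edgeR, while 2 lower had an unadjusted p under 0.05. DESeq2 called none lower. Voom with quality weights, upper quartile scaling and the replicate block each called 1 lower, as did leaving out control 3 and naphthalene 1 together. The 3 that rose are phosphate transporters: Slc20a1 (log2 fold change 0.61), Slc20a2 (0.35) and Slc34a2 (0.38), the last being the transporter of alveolar type 2 cells. Slc20a2 and Slc34a2 each lost the call in 6 of the 16 alternatives, while Slc20a1 kept it in all 16. Without control 1, control 2 or naphthalene 2, 1 call of a rise was left, and without control 3 there was 1 call of a fall. Kl, which encodes Klotho, was 1.70 CPM in controls and 2.13 CPM after naphthalene and did not pass the test (adjusted p = 0.457, edgeR).

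All 7 genes of the list on lipid-storing fibroblasts, cells that depend on Fgf10 in lung development, were tested, and 4 rose and none fell (median log2 fold change 0.59). None was lower at an unadjusted p under 0.05, by DESeq2 or by voom. Plin2, which coats lipid droplets, had 98.7, 116, 114 and 118 CPM in controls and 263, 239, 287 and 235 CPM after naphthalene, and rose by 1.20 (adjusted p = 3.19e-05, edgeR). Lpl (0.73) and Pnpla2 (0.59) rose, and so did Fabp4 (1.03), whose call was lost in 6 alternatives. These genes are also expressed outside fibroblasts. The 7 alveolar fibroblast markers, which include Plin2, summed to 3942 to 4692 CPM in controls and 3541 to 4229 CPM after naphthalene, with 1 higher and 2 lower.

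None of 7 regulators of the splicing that sets the receptor forms passed the test with edgeR, and 1 lower had an unadjusted p under 0.05. DESeq2 called none, and voom with quality weights called 1 higher and 1 lower. Esrp1, which promotes the epithelial form of Fgfr2, was 39.6 CPM in controls and 33.5 CPM after naphthalene (log2 fold change -0.24, adjusted p = 0.114, edgeR). Ptbp1, another splicing regulator, had a log2 fold change of 0.21 (adjusted p = 0.204, edgeR) and passed without naphthalene 4 (0.30, adjusted p = 0.0286, edgeR).

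**Figure D4:**
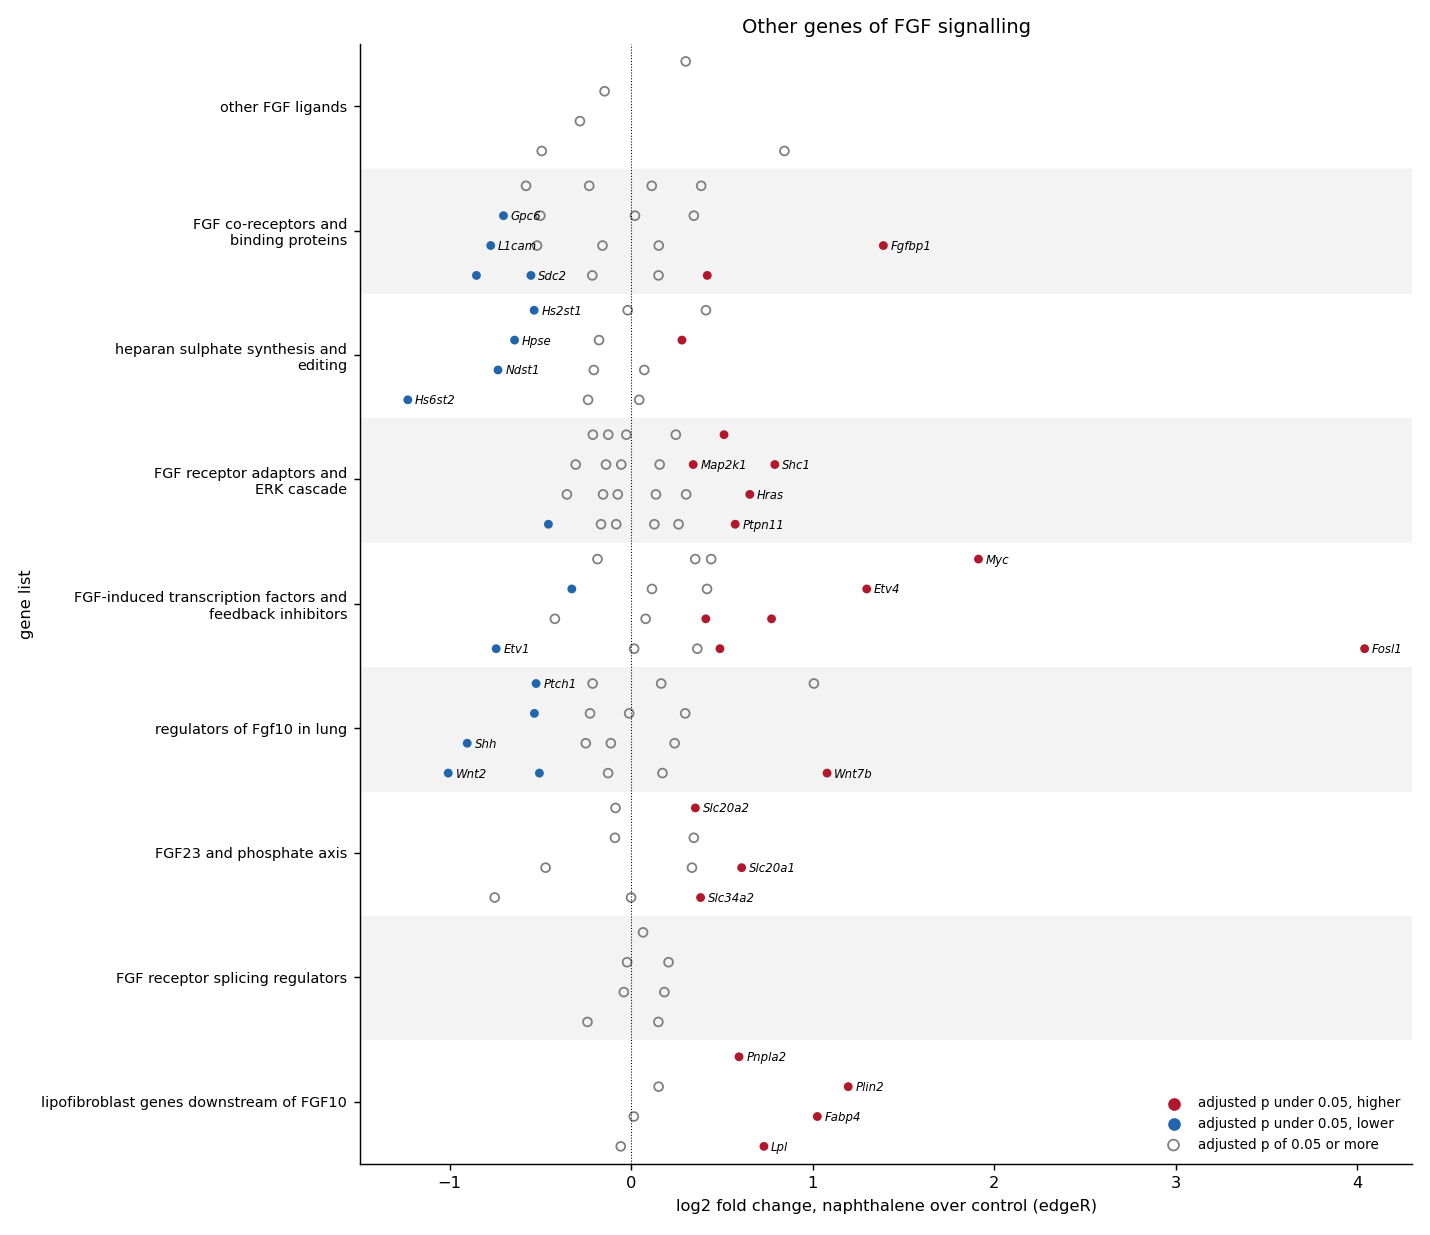
Log2 fold change, naphthalene over control (horizontal axis, edgeR), of each tested gene in the 9 pathway lists (rows; height within a row only separates points), with genes past an adjusted p of 0.05 filled red where higher and blue where lower. The called heparan sulphate genes lie to the left except Glce, which is not labelled, and the 4 called genes of lipid-storing fibroblasts lie to the right, as do Myc and Fosl1 in the list of FGF-induced genes.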

How the data were processed

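RNA from 4 control and 4 naphthalene lungs was made into stranded total RNA libraries, per the labels' protocols. The values are unnormalised integer counts for each gene symbol, as the authors deposited them. The submitters' processing notes name featureCounts 2.0.6, HISAT2 2.2.1, Trim Galore 0.6.7, edgeR 4.2.1 and mm39, with no role or order. The annotation, strand setting and treatment of multi-mapping reads are not stated there. Genes were tested with edgeR 4.0.16 in R 4.3.3 (TMM scaling, filterByExpr with a minimum count of 10 and a minimum total of 15, quasi-likelihood test of group, Benjamini-Hochberg adjustment over 14192 genes, threshold 0.05). The script was tested on simulated data. SEs are for the difference in mean log2 CPM between groups (prior count 2).

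All 10 FGF genes are named, and each pathway list names up to 4 genes past the threshold with the smallest p, or 2 where none passed. Marker lists name up to 3 genes by mean CPM. 1 called gene of the lists is not reported here. The FGF genes, the lists and the motifs were chosen with earlier results of these data known, so list counts are descriptions. Lengths are the exons of protein-coding basic transcripts in GENCODE M21 (GRCm38), a build other than that of the counts. Promoter sequences are RefSeq's (GRCm38.p6). Alternatives were other scalings and filters, a replicate block, DESeq2 1.42.0, voom with quality weights (limma 3.58.1), each library left out, and control 3 and naphthalene 1 left out together.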

Additional observations from a re-analysis of the deposited data

Results flagged for a closer look

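Over 41 genes and 82 groups of 4 libraries, 7 groups held a library far from the other 3 by Dixon's criterion, which chance alone would give in about 1 group in 20. Among the FGF genes, Fgf2 in control 3 was 38.4 CPM, against 32.3 to 32.7 CPM in the other controls. Fgfr1 in naphthalene 4 was 42.9 CPM, against 69.8 to 74.9 CPM in the other naphthalene libraries. Naphthalene 3 stood apart for L1cam (8.61 CPM, against 9.52 to 9.58), Wnt2 (7.12 CPM, against 12.8 to 13.6) and Esrp1 (37.4 CPM, against 31.7 to 32.6). Control 4 stood apart for Ptpn11 (193 CPM, against 214 to 218) and Ptch1 (151 CPM, against 173 to 174).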

How the results depend on the processing

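Of 160 pairs of an FGF gene and an alternative, 150 kept the call, 8 lost it (all Fgf7) and 2 gained one (both Fgfr3). Uncalled log2 fold changes crossed 0 for Fgf18 (-0.07 to 0.10) and Fgfr2 (-0.10 to 0.00034). The count of FGF genes called lower was 1 to 2 when each library was left out, 2 without naphthalene 1, and 2 without control 3 and naphthalene 1 together. The latter setting also raised the count of FGF genes without overlap from 3 to 5, with fewer libraries to overlap. Voom with quality weights called 63 pathway genes in place of 38. Over all 14192 genes tested it called 3186 higher and 3317 lower, in place of 2005 and 2070. The cause was not tested. With exons of all transcripts, an alternative chosen after seeing the data, the log2 ratio of Fgfr1 to Fgfr4 per length in controls turned from 0.75 to -0.082, as that length is 9.88 kb in place of 5.21 kb for Fgfr1, and the mean share of Fgfr4 in the receptor sum went from 5.49% to 9.16% in controls and from 2.01% to 3.44% after naphthalene.

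Libraries of the 2 groups share replicate numbers, but only 2 of 4 same-numbered pairs deviated together (correlations of -0.09 to 0.29, 1 of 4 controls best with its own number), so the numbers were not taken as pairs. With the replicate block, 3 FGF genes were higher, 1 lower and 44 pathway genes called, beside 2074 higher and 2289 lower over all genes. Slc34a2 missed the threshold there (adjusted p = 0.0602, edgeR). Gene-level counts limit what can be said of receptor forms, and Fgf23, Fosl1, Fgf9 and Etv4 rest on few reads.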
